A study of Homo sapiens with 18 samples.

Results

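The response of A549 cells to 3 days of sodium propionate (SP) was measured by RNA-seq in 6 of the 18 libraries of the series, 3 from cells given 5 mM SP for 3 days and 3 from cells left without treatment for 3 days. A549 is an established human lung adenocarcinoma line, a model of non-small cell lung carcinoma, labelled wild type and grown in DMEM high glucose medium with fetal bovine serum in all groups. The members were chosen by their labels alone, and no measured value entered the choice. The series also holds 3 libraries each of SP 12 days, SP 3 h, SP 24 h and an untreated control at 24 h, and the SP 24 h libraries with their own controls are used below. The study calls its 3 h and 24 h libraries biological replicates. For the 3 days libraries neither the labels nor the methods read here say that they came from separate cultures, so their p-values measure the spread between these libraries, which may be technical. Because the samples are bulk RNA, fewer cells of a kind and less RNA per cell cannot be told apart.

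Propionate is a short-chain fatty acid made by gut bacteria. Cells take it up through monocarboxylate transporters and convert it to propionyl-CoA, which enters the citric acid cycle as succinyl-CoA. Short-chain fatty acids also inhibit histone deacetylases, the enzymes that remove acetyl groups from histone tails, and propionyl-CoA can itself be used to modify histones. Acetylated histones mark open chromatin at active genes. A549 cells carry a defective KEAP1 protein, which leaves the antioxidant factor NRF2 active in untreated cells.

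Of 61541 genes in the count table, 17775 passed the filter on low counts and were tested. A gene was called at a Benjamini-Hochberg adjusted p under 0.0001 in edgeR's quasi-likelihood test with a change of at least 2-fold. After 3 days of SP, 1169 genes were called higher, which is 6.58% of the tested genes, and 331 were called lower, which is 1.86%. Higher genes thus made up 77.9% of the 1500 calls. In the large changes the direction was more uneven, with 554 genes at least 4-fold higher against 68 at least 4-fold lower, and 115 against 10 at 16-fold. At an adjusted p under 0.05 with no limit on size, the 2 directions were close, with 4487 genes higher (25.2%) and 4147 lower (23.3%). The SP libraries lay wholly above the controls for 5424 genes (30.5%) and wholly below for 5457 (30.7%), and the median log2 fold change over all tested genes was −0.024. The count of lower calls depended on a library outside the comparison, since it was 507 without SP 12 days replicate 3, which shares the estimate of the spread.

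Higher calls were most frequent among genes with few reads in untreated cells. Tested genes were placed in 6 equal bins by their level in the control 24 h libraries, which took no part in the 3 days comparison. In the lowest bin 10.9% of 2963 genes were called higher and 0.675% lower. The share called higher was 10.9% in bin 2 and 9.92% in bin 3, then 4.12%, 1.96% and 1.69% in bins 4 to 6. Lower calls peaked in bin 3 with 3.04% and stood at 1.55% in both bins 5 and 6. In bin 1, 1092 genes had a mean of under 10 normalized counts in the 3 days controls and passed the filter largely through other groups, so that a higher level with SP was in part built into that bin. In bin 3 this held for 3 genes. The median log2 fold change fell from 0.42 in bin 1 to 0.033 in bin 2 and −0.11 in bin 5.

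By class of gene, 7.9% of 13958 protein-coding genes were called higher and 1.99% lower. Of 2641 long noncoding RNAs 2.04% were called higher and 1.59% lower, and of 927 pseudogenes 1.19% and 1.08%. Among chromosomes with over 100 tested genes, chromosome 19 had the largest share called higher, 10.9% of 1243 genes. Its genes also had a median GC content of 58.2%, and their median log2 fold change was 0.11, against 0.00046 after correction for GC content and length. Solute carriers (SLC genes), which move metabolites across membranes, were called higher in 12.1% and lower in 4.6% of 239 genes. Of 47 tripartite motif genes (TRIM), many of them ubiquitin ligases, 2 were called higher. At an adjusted p under 0.05 with no limit on size, 21 TRIM genes fell (44.7%, against 23.3% of all genes) and 6 rose. These classes were formed after results were known and were not tested.

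The 10 largest rises among called genes with a mean of at least 100 normalized counts in either group were close to silent in the controls. Normalized counts are read counts scaled to the mean library size of 17963000 reads by the TMM method. DACT3, an intracellular antagonist of Wnt signalling, held 0, 1.13 and 2.12 normalized counts in the 3 controls and 285, 280.2 and 213 in the 3 SP libraries. NGFR, the low-affinity receptor for nerve growth factor (ENSG00000064300, chromosome 17, 49495293 to 49515008), held 1.72, 2.25 and 2.12 against 261, 244 and 294. HPCAL4, a neuronal calcium sensor, held 0.859, 1.13 and 1.06 against 118, 115 and 122. In these genes no control library came near an SP library. STAC2, an adaptor of muscle and neuronal calcium channels (ENSG00000141750, chromosome 17, 39210541 to 39225945), held 2.58, 4.5 and 5.31 in the controls and 435, 420.4 and 433 with SP. Summed over the 3 SP libraries and the 3 controls, STAC2 had 1184 reads against 12, a ratio of 107 (95% counting interval 61.1 to 208). KRTAP3-1, a keratin-associated protein of hair, held 5.15, 5.63 and 4.25 against 472, 485 and 542.

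ACHE, the enzyme that breaks down acetylcholine, had 707 reads against 12, a ratio of 64.0 (95% counting interval 36.4 to 124). CDH22, a cadherin of the brain, had 295 reads against 5, a ratio of 64.1 (95% counting interval 27.1 to 199). NSG1, an endosomal protein of neurons, followed with 361 reads against 7, a ratio of 56.0 (95% counting interval 26.9 to 140.3). These intervals cover counting error only. Groups without overlap were a condition of the choice of these genes. KIF1A, a kinesin motor that carries synaptic vesicle precursors along axons, had the most reads of the 10 with SP, at 15.5, 12.4 and 14.9 normalized counts in the controls and 774, 730.1 and 797 with SP (log2 fold change 5.73 ± 0.17, SE). Exons of NGFR overlap another gene over 27.2% of their length, and without a stated strand setting such reads cannot be told apart. A further 7 called genes had no read in the 3 controls, so their change is bounded from below by setting the control group's sum to 3 reads. The largest of these bounds was that of CHRNA4, a neuronal nicotinic receptor subunit, at least 41.6-fold higher with 115 reads with SP. BCL11A, a transcription factor best known for silencing fetal globin, was at least 31.5-fold higher with 87 reads.

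The sequences before the start sites of the first 2 rises and the first 2 falls that have a RefSeq promoter entry show how unlike these promoters were in their content of CpG, the dinucleotide at which DNA is methylated. Each line gives the 250 bases before the start site, 5′ to 3′ on the gene's strand, in build GRCh38.p14, with every CpG in capitals. DACT3 (chr19:46661183-46661432, minus strand) has 28 CpG in this stretch and HPCAL4 (chr1:39691434-39691683, minus strand) has 22. ANKS4B (chr16:21233449-21233698, plus strand) has 4 and HABP2 (chr10:113550581-113550830, plus strand) has 7.
DACT3: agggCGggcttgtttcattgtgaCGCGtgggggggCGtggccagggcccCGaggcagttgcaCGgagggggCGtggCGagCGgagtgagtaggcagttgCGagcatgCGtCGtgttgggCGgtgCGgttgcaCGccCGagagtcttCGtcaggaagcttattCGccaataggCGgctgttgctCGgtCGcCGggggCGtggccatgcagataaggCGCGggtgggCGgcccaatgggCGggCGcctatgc
HPCAL4: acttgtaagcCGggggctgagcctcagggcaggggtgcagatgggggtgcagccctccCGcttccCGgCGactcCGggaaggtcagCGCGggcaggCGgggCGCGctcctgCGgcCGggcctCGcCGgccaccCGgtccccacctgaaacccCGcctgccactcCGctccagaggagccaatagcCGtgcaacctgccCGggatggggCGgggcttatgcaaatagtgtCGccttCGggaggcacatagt
ANKS4B: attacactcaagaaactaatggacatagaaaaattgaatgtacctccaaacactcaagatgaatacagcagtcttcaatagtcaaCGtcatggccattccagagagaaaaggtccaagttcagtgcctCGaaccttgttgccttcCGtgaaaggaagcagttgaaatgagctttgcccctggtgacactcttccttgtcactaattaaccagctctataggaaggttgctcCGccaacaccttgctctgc
HABP2: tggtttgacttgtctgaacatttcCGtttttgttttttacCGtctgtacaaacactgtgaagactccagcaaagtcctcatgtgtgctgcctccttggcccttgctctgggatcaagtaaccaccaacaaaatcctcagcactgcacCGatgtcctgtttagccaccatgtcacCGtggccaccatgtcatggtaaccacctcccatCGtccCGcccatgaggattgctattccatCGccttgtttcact

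In the window from 250 bases before to 50 bases after the start, the 6 largest rises with a RefSeq entry had 2 to 41 CpG, with KRTAP3-1 lowest and NSG1 highest, and the 8 largest falls had 1 to 29, with BAAT lowest and CACNG6 highest. Over all 12224 tested genes matched by symbol, the median was 26 CpG per window, against 14 over the 27305 promoters of the table. The 826 matched genes called higher also had a median of 26, and the 236 called lower had 21. Within bins 1 and 2 together, the weakly expressed genes, those called higher had a median of 24 CpG and those not called had 18. The TATA box letters TATAAA, searched on both strands, stood in 13.6% of the windows of genes called lower, 6.54% of those called higher, 5.93% of tested genes and 12% of the whole table. GGGCGG, the core letters of the SP1 (GC box) motif, stood in 73.2% of windows of genes called higher, 51.3% of those called lower, 68.4% of tested genes and 44.6% of the table. A match of letters is a description of sequence and not a site of binding.

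**Figure D1:**
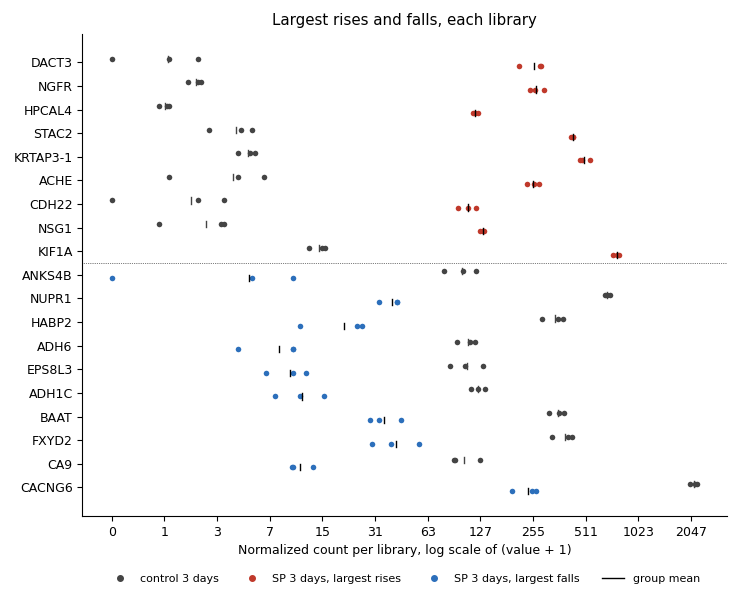
Each point is a library, placed by its normalized count on a log scale of value + 1. Grey points are the 3 controls of a gene, red points SP 3 days of 9 of the largest rises and blue points SP 3 days of the 10 largest falls, and short lines are group means. All 19 genes were chosen for groups that do not overlap.

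The 10 largest falls, chosen by the same rule, started from higher counts in the 3 days controls. ANKS4B, a scaffold protein of the epithelial brush border, held 101, 78.8 and 120.0 normalized counts in the controls and 0, 9.85 and 5.37 with SP. Its call was lost with DESeq2 (adjusted p = 1.32e-04). Leaving out the third control (1.12e-04) or the third SP 3 days library (2.13e-04) also ended it, by edgeR. NUPR1, a stress-induced chromatin protein, held 663, 673 and 704 against 32.9, 41.6 and 41.9, and HABP2, a plasma serine protease, 355, 288 and 380.1 against 24.1, 10.9 and 25.8. Their log2 fold changes were −4.13 ± 0.16 and −4.06 ± 0.24 (SE), and the groups lay far apart. The alcohol dehydrogenases ADH6 and ADH1C fell, with log2 fold changes of −3.73 ± 0.30 and −3.45 ± 0.28, and ADH1C has close relatives with which reads can be shared. BAAT, which joins bile acids to taurine or glycine, held 358, 383 and 316 against 32.9, 43.8 and 29.0. FXYD2, a regulator of the sodium pump, held 404, 329 and 427 against 29.6, 55.8 and 38.7. CA9, a carbonic anhydrase of the hypoxia response, held 89.3, 91.2 and 126 against 9.86, 13.1 and 9.67, but 35.7% of its exons overlap ARHGEF39. CACNG6, a calcium channel subunit, had the most reads of the 10, at 2227, 2145 and 2018 in the controls and 253, 266 and 193 with SP. EPS8L3, a relative of the actin regulator EPS8, changed by −3.48 ± 0.36. The 10 falls are against the 3 days controls. In the control 24 h libraries, normalized on their own, NUPR1 held 46.6, 53.2 and 37.8 and HABP2 31.4, 56 and 45.4. Of the 10, all but BAAT (509, 574 and 415) and FXYD2 (579.7, 441 and 402) had a lower mean level there. No test compared the control 24 h libraries with the 3 days controls.

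Ranked by reads gained, abundant genes with smaller folds lead. PSAP, the precursor of the lysosomal saposins, gained most, with means of 26392 ± 1643 normalized counts in the controls and 52889 ± 2981 with SP (SD, n = 3). This change lay at the 2-fold limit, and after correction for GC content and length or without most of the single libraries it was below that limit. The lysosomal protease CTSB rose from 14778 ± 1261 to 31715 ± 1757. KRT19, a keratin of simple epithelia, had the largest fold of this group, from 5189 ± 667 to 23561 ± 1085 (log2 fold change 2.18 ± 0.15, SE). PRSS23, a secreted serine protease, rose by 1.41, TGFBI, a secreted matrix protein induced by TGF-β, by 1.34, and PTPRF, a receptor phosphatase of cell junctions, by 1.46 on the log2 scale. FASN, the fatty acid synthase, rose from 10199 ± 1278 to 26672 ± 1111, and MYH9, the heavy chain of nonmuscle myosin, from 12826 ± 1059 to 27399 ± 1461. After correction of each library for GC content and transcript length, the log2 fold change of FASN was 0.85 in place of 1.39, that of MYH9 0.82 in place of 1.10, and both lost the call.

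Of the 8 largest losses of reads, 4 were in enzymes that oxidize or reduce aldehydes and ketones. ALDH3A1, an aldehyde dehydrogenase, fell from 34728 ± 4272 to 5792 ± 316 normalized counts (SD, n = 3). The aldo-keto reductases AKR1B10, AKR1C2 and AKR1C3 changed by −1.05, −1.30 and −1.17 on the log2 scale. AKR1C genes are near copies of each other, so reads may be divided among them. KRT81, a hair keratin with near-identical relatives, fell from 50212 ± 3689 to 22048 ± 709. AMIGO2, a cell adhesion protein, fell from 16215 ± 457 to 6132 ± 109, the lysosomal protease CTSL from 14292 ± 756 to 5584 ± 305, and SLC3A2, the heavy chain of amino acid transporters, from 15196 ± 626 to 6106 ± 204. CTSL thus moved against CTSB, its relative in the same organelle. AKR1B10 and AKR1C3 lost the call after correction for GC content and length, with log2 fold changes of −0.90 and −0.92, and AKR1B10 was also just under 2-fold without the third control library.

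Below, 49 lists of genes are described by how many tested members rose or fell at an adjusted p under 0.05, to be read against 25.2% higher and 23.3% lower among all tested genes, and by the median log2 fold change. Where members are counted as called, the shares to set beside them are 6.58% called higher and 1.86% called lower among all tested genes. Lists were not tested as sets. They hold 9 to 63 tested genes, apart from small marker lists.

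The list with the largest share of changed members was the ATF4 programme. ATF4 is a transcription factor that cells switch on when amino acids run short or proteins misfold, and its targets import amino acids, charge tRNAs and make serine and one-carbon units. Of 36 tested members, 31 fell, 1 rose, and 21 were called lower, with a median of −1.25. CHAC1, which degrades glutathione, held 1022, 1022 and 1229 normalized counts in the controls and 133, 124 and 121 with SP. ASNS, asparagine synthetase, held 182, 200.3 and 201 against 31.8, 39.4 and 35.5, with the limit that 49.3% of its exons overlap another gene, and MTHFD2, of mitochondrial folate metabolism, 5136, 5363 and 4865 against 1050.3, 1097 and 1077. In all 3 genes the groups lay far apart. These falls are against the 3 days controls. In the control 24 h libraries, normalized on their own, CHAC1 held 37.1, 58.9 and 53.6 and ASNS 16.2, 22.8 and 24.6. MTHFD2 held 3832, 2732 and 3234 there. Whether the controls differed between the times was not tested. The transcription factor DDIT3 fell from 462 ± 35.7 to 115 ± 17.8, the pseudokinase TRIB3 changed by −1.82, and the serine synthesis enzymes PHGDH, PSAT1 and PSPH by −1.80, −1.94 and −1.39 on the log2 scale. ATF3, another stress factor, was the member that rose, by 0.54, and no member passed as higher when Control 3 days replicate 1, Control 3 days replicate 2 or SP 3 days replicate 3 was left out.

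NRF2 targets, the antioxidant, glutathione and NADPH genes, fell in 24 of 36 members, 10 of them called, and the other 12 did not pass (median −0.40). OSGIN1 held 701, 711 and 824 against 230.0, 213 and 212, and KEAP1, the inhibitor of NRF2, 1817, 1752 and 2035 against 653, 659 and 623. SLC7A11, the cystine importer that stands in both the NRF2 and the ATF4 list, fell by 1.69 ± 0.17 (SE). GCLC and GCLM, the subunits of the enzyme that starts glutathione synthesis, changed by −1.21 and −0.78, and the ferritin chains FTH1 and FTL by −0.86 and −0.72. The endoplasmic reticulum chaperones and the unfolded protein response, had 4 higher and 3 lower of 23 members and a median of 0.061. In that list ERN1, the sensor kinase IRE1, held 2018, 2190.3 and 2078 against 751, 724 and 829.5, HERPUD1 and XBP1, the factor that IRE1 splices, fell, with log2 fold changes of −1.11 ± 0.09 and −0.72 ± 0.18 (SE), while the chaperone SDF2L1 rose by 0.46. After correction for GC content and length, 9 members of that list were higher instead of 4. Cytosolic heat shock genes rose in 7 of 15 members and fell in 1 (median 0.18). HSPA1A and HSPA1B, near-identical copies of the inducible HSP70, rose by 1.48 and 1.18, the small chaperone HSPB8 by 1.46, and the cochaperone DNAJB1 by 1.01.

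Most genes of fatty acid synthesis rose. Of 25 tested genes of fatty acid synthesis and desaturation, 19 rose, 6 of them called, and 2 fell (median 0.62). ELOVL3, which lengthens fatty acids, held 5.15, 2.25 and 4.25 normalized counts in the controls and 42.7, 53.6 and 61.2 with SP. MLXIPL, the glucose-sensing factor ChREBP, held 175, 180.1 and 174 against 779.8, 801 and 871, and the desaturase family member FADS3 525, 473 and 558 against 1491, 1499 and 1527. The factor SREBF1, which drives this pathway, rose from 12858 ± 881 to 25665 ± 971. Cholesterol synthesis and uptake genes rose in 15 of 27 members and 12 did not pass (median 0.38). INSIG1, FDFT1 and the cholesterol exporter ABCA1 rose by 0.97, 0.88 and 0.84. Fatty acid oxidation and PPAR targets rose in 12 of 32 and fell in 2 (median 0.21). PPARA, the fasting-response receptor of this pathway, held 235, 200.3 and 245 against 552, 524 and 552, and its target ANGPTL4 89.3, 87.8 and 95.6 against 195, 239.7 and 192. ACADVL, which starts the oxidation of long chains, rose by 0.50, and the thioesterase ACOT2 fell by 0.56 ± 0.084 (SE).

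Genes of propionyl-CoA metabolism, listed together with branched-chain amino acid oxidation, rose about as often as tested genes in general and fell less often. Of 31 tested genes of propionyl-CoA metabolism and branched-chain amino acid oxidation, 8 rose (25.8%) and 3 fell (9.68%), where 25.2% and 23.3% of all tested genes did (median 0.097). After correction for GC content and length 13 rose and 5 fell, and without SP 3 days replicate 1 the count was 5. ABAT, the transaminase that breaks down the neurotransmitter GABA, rose most, from 16.3, 22.5 and 14.9 normalized counts to 200.4, 229.9 and 215. BCAT1, the cytosolic aminotransferase of branched-chain amino acids, fell from 469.8, 604 and 421 to 118, 120.4 and 122. ALDH6A1, whose reaction yields propionyl-CoA from valine, rose from 615 ± 8.28 to 1127 ± 45.2, and HIBADH, a step before it, by 0.87 ± 0.085 (SE). Of 18 transporters and receptors of short-chain fatty acids, 10 were tested, and 4 rose while 2 fell. SLC16A3, the monocarboxylate transporter MCT4, held 2174, 2112 and 2278 in the controls and 8142, 8359 and 7738 with SP, and its chaperone BSG rose by 0.76. SLC16A6 and SLC16A4 fell, with log2 fold changes of −1.25 ± 0.13 and −0.66 ± 0.091 (SE).

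Genes of sugar metabolism moved in both directions. Glycolysis genes rose in 10 and fell in 6 of 27 (median 0.11). SLC2A3, the high-affinity glucose transporter GLUT3, held 719, 822 and 699.6 against 8331, 8095 and 7696, a log2 fold change of 3.43 ± 0.092 (SE), though a near copy, SLC2A14, can share its reads. HK2 rose by 1.21, ALDOC by 1.35 and the D-lactate dehydrogenase LDHD by 1.36, while LDHA changed by −0.52 and PGK1 by −0.36. Hypoxia-response genes rose in 9 and fell in 6 of 22. LOXL2, a collagen crosslinking enzyme, rose by 1.09 and STC1 by 0.99, CA9 fell as above, and HILPDA and VEGFA changed by −0.96 and −0.61. TXNIP and MondoA targets held 1 higher and 3 lower member among 9. Of these ARRDC2 and KLF10 fell, with log2 fold changes of −0.75 ± 0.11 and −0.67 ± 0.083 (SE), TXNL1 changed by −0.26 and the sensor MLXIP by 0.34, a rise that was lost after correction for GC content and length. Nuclear genes of the respiratory chain numbered 4 higher and 5 lower of 47, led by the complex I subunits NDUFA9 and NDUFS3 (−0.53 and −0.51), NDUFA8 (−0.43) and CYC1 of complex III (−0.36). After the same correction 16 were higher, and without SP 12 days replicate 3 the counts were 8 higher and 10 lower. Without Control 3 days replicate 2 the higher count was 1, and without Control 3 days replicate 3 it was 7. The 13 genes of the mitochondrial genome had a median of −0.12, and 0.16 after the correction, and their calls depended on the fit. In the fit used throughout, edgeR passed 0 of them, with 0 higher and 0 lower at an unadjusted p under 0.05, and DESeq2 passed 0 in either direction. After the correction 3 were higher, with the correction and the replicate block 11, with the block alone 1 was higher and 5 lower, and without SP 12 days replicate 3 it was 1 and 4.

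Genes of mitosis and DNA replication that passed the test were lower with SP. Mitosis and G2/M genes fell in 20 of 36 members and 16 did not pass (median −0.66). PLK1, a mitotic kinase, held 2109.6, 1952 and 2421 against 868, 868 and 1004. NDC80, of the kinetochore, changed by −1.24 ± 0.29, the mitotic factor FOXM1 by −1.22 ± 0.29 and cyclin A2 (CCNA2) by −1.14 ± 0.27 (SE). All 3 SP libraries lay below the controls for 32 of the 36 genes, against 30.7% of all tested genes. DNA replication genes fell in 12 of 37 (median −0.39), among them the thymidylate synthase TYMS (−1.28, with 47.9% of its exons shared with ENOSF1), the origin subunit ORC6 (−0.91), the clamp loader subunit RFC3 (−0.86) and the helicase subunit MCM7 (−0.78). The counts depended on the estimate of the spread. Without SP 12 days replicate 3 they were 32 mitosis genes and 29 replication genes, the latter fell to 7 without Control 3 days replicate 3, and leaving out any SP 3 days library or Control 3 days replicate 1 or 2 gave 12 or 13 mitosis genes.

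CDK inhibitors hold back the kinases that drive the cell cycle. Among 20 tested CDK inhibitors and G1 regulators, 7 rose and 3 fell, the latter being 5 without SP 12 days replicate 3 and 6 with the replicate block. CDKN1C, the inhibitor p57, held 50.7, 28.1 and 48.8 against 181, 195 and 144, and CDKN1A, the inhibitor p21, rose from 2298 ± 162 to 4459.7 ± 131. CDKN2D rose by 0.98 ± 0.17, and CCNE1, the cyclin that opens S phase, by 1.05 ± 0.10 (SE). MYC and ribosome biogenesis genes fell in 18 of 33 (median −0.28), with the small-subunit processome member UTP20 at −0.86, GRWD1 at −0.65, the pyrimidine synthesis enzyme CAD at −0.63 and DKC1 at −0.57, while MYC itself rose by 0.50. Ribosomal protein genes passed in few members, 4 higher and 4 lower of 42, among them RPL30 (−0.43, 40.8% of its exons shared with an antisense gene), RPS13 (−0.33), RPS3 (0.36) and RPL27 (0.35). After correction for GC content and length 12 ribosomal protein genes were higher and RPS13 no longer passed, and 9 were lower without Control 3 days replicate 2. Other single libraries left out gave 2 to 7 in either direction.

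Genes of chromatin itself moved in both directions. Of 40 writers, erasers and readers of histone acetylation, 17 fell and 9 rose (median −0.12). KAT6B, an acetyltransferase, held 666, 723 and 698 against 281, 249.6 and 292, and the acetyltransferases CREBBP fell from 2194 ± 112 to 1098 ± 70.4 and EP300 from 1808 ± 98.8 to 1226 ± 136. RCOR2, a corepressor partner of the demethylase LSD1, rose from 60.2 ± 7.47 to 198 ± 7.76, and SIRT4, a mitochondrial sirtuin, by 1.37. Polycomb and DNA methylation genes rose in 7 and fell in 9 of 30. The higher count was 4 without Control 3 days replicate 1, Control 3 days replicate 2 or SP 3 days replicate 1, and GC content and length correction gave 5 higher and 13 lower. TET3 and TET2, which oxidize methylcytosine, fell, with log2 fold changes of −1.02 ± 0.096 and −0.69 ± 0.11, and CBX7 and the demethylase KDM5B rose by 0.60 and 0.55. A list of linker, replacement and some core histones fell in 11 of 19 members, 3 of them called, with 8 not past the test (median −0.48). The core histone gene H2AC6 held 597, 563 and 584 against 205, 206 and 217, and the core histone genes H2BC21, H2BC12 and H2AC25 changed by −1.44, −1.16 and −0.96. The linker histone gene H1-2 fell, and of the replacement histones H2AZ1 fell, with a log2 fold change of −0.71, and H3-3B did not pass. Histone genes are near copies of each other, so their reads may be shared.

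Collagens build the fibres and sheets of the extracellular matrix. Collagens and other matrix proteins rose in 32 of 39 tested members, 16 of them called, and fell in 1 (median 0.99). COL5A1, a fibril-forming chain, held 1303, 1411 and 1454 against 7376, 7243 and 7539, and COL6A2, of beaded microfibrils, 224, 216 and 311 against 1312, 1411 and 1363. COL28A1 rose from 30.8 ± 0.726 to 216 ± 14.9 and the transmembrane collagen COL13A1 by 2.65 on the log2 scale. The proteoglycan versican (VCAN) was the member that fell, with a log2 fold change of −0.82 ± 0.12 (SE). Integrins and laminins rose in 19 of 32 and fell in 2 (median 0.59). ITGAX, best known from dendritic cells, held 129.7, 101 and 135 against 842, 807 and 970.3. ITGA7 and ITGA4 rose by 2.32 and 2.27, where 26.4% of the ITGA4 exons are shared with CERKL, and ITGA10, a collagen receptor chain, fell from 225 ± 25.2 to 36.6 ± 8.97. Matrix proteases and their inhibitors rose in 22 and fell in 6 of 35 (median 0.65). The membrane protease MMP15 held 642, 636 and 763 against 3943, 4239.6 and 3821, MMP11 24.9, 19.1 and 31.9 against 164, 198 and 189, and the plasminogen activator PLAT 93.6, 95.7 and 121 against 426, 418 and 436, while the inhibitor SERPINB8 fell by 1.79 ± 0.19 (SE).

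Signalling lists held many changed members, most of them higher. TGF-β and BMP genes rose in 21 and fell in 10 of 41 (median 0.32). Among the ligand antagonists FST fell by 2.86 ± 0.18 (SE) while CHRD rose from 14.5 ± 2.82 to 81.6 ± 2.42, and the ligand BMP7 rose from 12.0 ± 1.19 to 82.4 ± 13.3. Wnt antagonists and feedback genes rose in 14 of 21 and fell in 1 (median 1.22). NOTUM, an enzyme that inactivates Wnt ligands, held 22.3, 7.88 and 14.9 against 197, 211 and 214, KREMEN2, a co-receptor of the antagonist DKK1, 36.9, 46.1 and 29.7 against 493, 508 and 387, and the decoy SFRP5 24.9, 22.5 and 21.2 against 113, 137 and 117. DKK1 itself changed by −0.62. Wnt ligands, receptors and effectors also rose, in 20 of 33 with 3 lower. Among those with at least 50 normalized counts the largest changes were in the receptor ROR2 (2.87), the ligands WNT11 (2.27) and WNT5B (2.17) and the factor TCF7L1 (1.36), while the ligand WNT3A rose from few reads, 69 against 3, and WNT3 fell by 1.02 ± 0.10 (SE). Notch genes rose in 17 of 27 and 10 did not pass (median 0.81, but 0.37 after correction for GC content and length, where 3 fell). The ligands DNER and DLL1 rose by 2.81 and 2.52, and the target factors HES2 and HES7 from 36.3 ± 7.01 to 233 ± 10.9 and from 55.0 ± 6.31 to 305 ± 45.2.

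Growth factor genes were mixed. ERBB receptors, EGF-family ligands and related genes rose in 12 and fell in 7 of 31. HBEGF, an EGF receptor ligand, held 31.8, 23.6 and 30.8 against 106, 94.1 and 109.6, and the receptor FGFR3 200.1, 213 and 230.4 against 733, 705 and 638. Of the insulin-like growth factor binding proteins, IGFBP5 rose by 3.15 ± 0.69 and IGFBP1 fell by 1.65 ± 0.12 (SE). ERK pathway feedback genes rose in 8 and fell in 9 of 25, of which SPRED3 and DUSP10 rose by 1.45 and 1.06, while DUSP6 and ETV5 fell, with log2 fold changes of −0.82 ± 0.15 and −0.75 ± 0.077 (SE). Immediate early genes rose in 8 and fell in 4 of 20. The lower count was 2 without Control 3 days replicate 3, SP 3 days replicate 1 or SP 3 days replicate 3, and 7 without SP 12 days replicate 3. JUN, a subunit of the AP-1 factor, held 478, 430.0 and 437 against 2498, 2576 and 2105 and KLF6 1015, 927 and 957 against 2327, 2311 and 2048. EGR1 varied more, 1018, 464 and 981 against 1679, 2339 and 1252, and NR4A2 fell from 224 ± 13.5 to 75.4 ± 6.11. Mesenchymal markers and EMT factors rose in 9 and fell in 5 of 19, with rises in THY1 (3.18), the repressors SNAI1 (2.80) and SNAI3 (1.40) and N-cadherin (CDH2, 0.90). The muscle protein CNN1 rose more from few reads, 79 against 5, and FOXC1, ZEB2, TCF4, NT5E and ZEB1 fell, from −0.35 for ZEB1 to −0.89 for FOXC1.

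Many genes known from neurons rose. Neuronal and synaptic genes rose in 40 of 63 tested members, 22 of them called, and fell in 4 (median 1.07), where a further 16 of the 79 listed had too few reads. Of the tested members 18 lay in the lowest bin of level in the control 24 h libraries, where 34.5% of all genes rose and 6.78% fell. Among the other 45, 24 rose and 4 fell, where 23.4% of all genes in bins 2 to 6 rose and 26.6% fell. Besides NGFR, HPCAL4 and KIF1A, the microtubule protein tau (MAPT) held 46.4, 46.1 and 61.6 against 782, 847 and 918. Potassium channel genes rose in 28 of 43 and fell in 5 (median 1.06), and outside the lowest bin in 18 and 5 of 31. KCNH2, the cardiac channel hERG, held 79.0, 81.0 and 74.3 against 651, 650.2 and 650.1, KCNJ4 had 274 reads against 10, a ratio of 29.8 (95% counting interval 15.9 to 62.8), and KCNN2, a calcium-activated channel, rose from 6.01 ± 4.25 to 67.6 ± 12.9. Clustered protocadherins, adhesion proteins by which neurons tell themselves apart, rose in 15 of 22 and fell in 2 (median 1.34), but outside the lowest bin in 5 and 2 of 12. The lower count was 0 with DESeq2, without SP 3 days replicate 1 and without SP 3 days replicate 3, and 1 without any other single library of the compared groups. PCDHB6 held 30.1, 22.5 and 12.7 against 159.9, 192 and 159, PCDHB8 12.0, 4.5 and 20.2 against 53.7, 48.2 and 54.8 and PCDHB5 78.2, 86.7 and 62.6 against 181, 169.7 and 182. PCDHGB4 rose by 1.76, but 64.4% of its exons belong also to other genes of the cluster, and protocadherins of a cluster resemble each other. PCDHB10, PCDHB11, PCDHB13 and PCDHB14 formed a run of 4 neighbouring tested genes on chromosome 5 (141192353 to 141227759) that were all called higher, by 2.21 to 4.66 on the log2 scale. Summed over 3 libraries they had 55, 113, 98 and 93 reads with SP against 2, 16, 23 and 16 in the controls. With so few control reads they passed the filter largely through other groups, so that a higher level was in part built in.

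Muscle genes were mostly silent, as 17 of 43 were tested. Of these 7 rose and 1 fell, and the rises included the troponins TNNC1 (11.2, 12.4 and 11.7 against 106, 104 and 139.7), TNNI3 (1.52, 24.4% of its exons shared) and TNNT1 (from 1045 ± 115 to 2335 ± 101) as well as STAC2. Outside the lowest bin of level in the control 24 h libraries, 4 muscle genes rose and 1 fell of 11. TNNT1, TNNI3, DNAAF3 and SYT5 are neighbours among the tested genes on chromosome 19 (55132698 to 55180289) and were all called higher. Of all tested genes on that chromosome 10.9% were called higher. Such runs of 4 also held IGFL3 and IGFL2 on chromosome 19, called higher, and RBP5 and CLSTN3 on chromosome 12, called lower. No run was tested. Of 52 germline genes 15 were tested, with 5 higher and 4 lower. The higher count was 3 without Control 3 days replicate 1, Control 3 days replicate 3 or SP 3 days replicate 1, and the lower count 2 without the first of these. TEX19 rose by 3.42 ± 0.66 and MEIOB by 1.28 ± 0.17 (SE), though 43.8% and 77.7% of their exons overlap other genes, and SYCP2 and STK31 changed by −0.71 and −0.63. HOX genes went both ways, 9 higher and 11 lower of 33. HOXD10 and HOXC10 rose by 1.60 and 0.92, and HOXB2 fell by 1.23 ± 0.24 (SE).

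More liver-type genes fell than rose. Of 40 tested secreted proteins and hepatic factors 19 fell, 6 of them called, and 7 rose (median −0.58). HABP2 and the alcohol dehydrogenases fell as above. In the other direction SERPINA5, a protease inhibitor, rose from 36.8 ± 8.97 to 229 ± 30.4 (adjusted p = 0.0166 from edgeR). Xenobiotic metabolism genes and nuclear receptors rose in 21 and fell in 6 of 44 (median 0.45), and outside the lowest bin in 13 and 6 of 30. UGT8, a galactosyltransferase of myelin lipids, rose from 8.37 ± 3.63 to 74.0 ± 16.6 and UGT1A1, which conjugates bilirubin and shares exons with its whole cluster, by 2.23. TBXAS1, thromboxane synthase, fell from 374 ± 3.96 to 97.2 ± 13.1 and CYP7B1 fell by 1.56 ± 0.30 (SE). Retinoic acid genes rose in 13 and fell in 7 of 25. The intracellular carriers CRABP2 (26.6, 24.8 and 29.7 against 314, 350.3 and 364) and RBP7 (12.9, 14.6 and 13.8 against 55.9, 83.2 and 70.9) rose, while the plasma carrier RBP4 fell from 256 ± 33.6 to 70.7 ± 9.64 and RBP5 fell by 1.45 ± 0.18 (SE), with 51.9% of RBP5 exons shared with C1RL-AS1.

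Antigen presentation shows fragments of a cell's proteins to T cells. Antigen presentation and immune ligand genes rose in 20 and fell in 7 of 38 (median 0.45). ULBP2, a stress ligand seen by natural killer cells, held 24.9, 15.8 and 20.2 against 128, 154 and 173, and HLA-B 362, 322 and 391 against 1213, 1327 and 1342, where 47.3% of its exons overlap a pseudogene and other HLA genes are similar. HLA-DMB, which loads class II molecules, fell from 1989 ± 119.8 to 384 ± 39.9, and the proteasome subunit PSMB10 fell by 1.87 ± 0.18 (SE). Interferon-stimulated genes were split, 12 higher and 13 lower of 42. BST2, which tethers viruses to the membrane, rose from 7.97 ± 3.59 to 106 ± 17.0 (adjusted p = 0.00225 from edgeR), OASL, IFI6 and GBP2 by 1.63, 1.48 and 1.29, and IFIT2 changed by −1.12. Chemokines, cytokines and NF-κB response genes were split as well, 11 higher and 10 lower of 34. CCL26, CX3CL1 and CXCL8 rose by 1.75, 1.51 and 1.35, and CXCL2 fell by 1.08 ± 0.17 (SE). Lysosome and autophagy genes rose in 22 of 42 and fell in 6 (median 0.32), with MAP1LC3A at 1.29 and CTSH at 0.96 next to CTSB and PSAP.

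Markers of the line were present in every library. All 18 listed markers of A549 passed the filter, and 5 rose, among them the epithelial proteins CDH1 (2748, 2923 and 2829 against 7069, 7321 and 7804) and EPCAM (161, 180.1 and 189 against 447, 488 and 420.1), while 9 fell, mostly the detoxification genes described above. Of 17 fibroblast and endothelial markers 7 were tested, and their summed level was 383 to 404 normalized counts in the controls and 1646 to 1943 with SP. That sum comes chiefly from THY1 and COL1A1 (238, 235 and 242 against 1009.8, 1128 and 1196). Of the 7 tested markers 3 rose, among them LUM by 2.04, and 1 fell, CDH5 by 0.94 ± 0.28 (SE). The listed genes COL1A2 and EMCN had no read in any of the 6 libraries. Of 20 blood cell markers 4 were tested, 7 had no read, and the leukocyte gene PTPRC had 3 reads in the controls and 1 with SP. Their summed level was 341 to 384 in the controls and 675 to 746 with SP. CD14 made up most of it and rose from 306 ± 14.3 to 647 ± 30.2. The part of such cells in the results was not tested.

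Which of these changes were present earlier was read from the libraries taken at 24 h, which have their own controls and were normalized and tested on their own, 17377 genes in all. At 24 h, 2922 genes were higher at an adjusted p under 0.05 (16.8%) and 2087 lower (12%). Of the 1108 genes called higher at 3 days that were tested at 24 h, 905 were higher there too (81.7%), with a median log2 fold change of 1.55. Of 317 called lower, 190 were lower (59.9%) with a median of −0.73, and 7 were higher (2.21%). With the replicate block 957 and 210 moved the same way, 10 of the lower genes were higher at 24 h and 6 of the higher genes were lower. All 10 of the largest rises passed at 24 h. STAC2 and NGFR stood at 6.82 and 6.53 on the log2 scale, near their values at 3 days, while DACT3 stood at 4.33 and ACHE at 3.03. Of the 10 largest falls 8 passed, BAAT at −3.02 and NUPR1 at −1.20, while EPS8L3 at −0.27 (adjusted p = 0.499 from edgeR) and CA9 at 0.91 (adjusted p = 0.0936) did not.

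Of the 8 genes with the largest gains of reads, 3 passed at 24 h without a block. KRT19, PSAP and CTSB rose by 1.45, 0.84 and 0.75 there, but PRSS23 stood at −0.071 and TGFBI at 0.24 (adjusted p = 0.549 and 0.259 from edgeR). FASN, MYH9 and PTPRF had adjusted p-values of 0.0621, 0.0949 and 0.0526 from edgeR at 24 h. With the replicate number as a block in edgeR's model they were 0.0271, 0.029 and 0.0179. The block was used because 24 h libraries of the same number varied together, clearly so for numbers 1 and 3 only. The same block brought AKR1C2 from 0.102 to 0.0334. Of the genes with large losses, ALDH3A1, KRT81, AKR1B10, AKR1C3, AMIGO2, SLC3A2 and CTSL were lower at 24 h, from −0.44 for CTSL to −1.31 for ALDH3A1. Of the ATF4 list, CHAC1 stood at 0.72 (adjusted p = 0.057 from edgeR, and 0.015 with the block, the opposite direction to 3 days), ASNS at −0.61 (0.131) and MTHFD2 at −0.73 (0.0089). JUN, which rose by 2.41 at 3 days, stood at −0.057 at 24 h (adjusted p = 0.828 from edgeR). Its 3 days counts are given above. At 24 h, normalized on their own, the controls held 1675, 1535 and 2401 and the SP libraries 1784, 1492 and 2119. Whether the controls differed between the times was not tested. Whether changes differed between 24 h and 3 days was not tested.

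**Figure D2:**
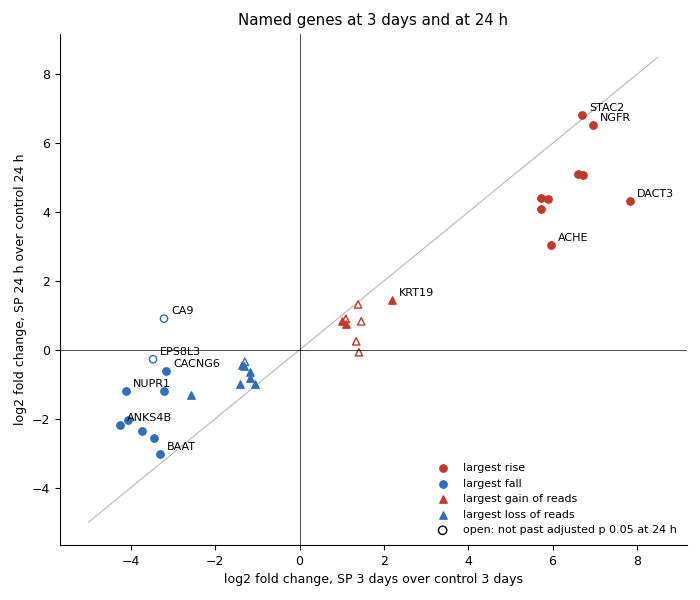
Each point is one of 35 named genes, with the log2 fold change at 3 days on the horizontal and at 24 h on the vertical axis, each against its own controls. Circles are the largest rises (red) and falls (blue), triangles the 8 largest gains (red) and losses (blue) of reads, open symbols did not pass an adjusted p of 0.05 at 24 h without the block, and the grey line marks equal values. STAC2 and NGFR lie close to the line, and CA9 lies above 0 at 24 h.

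At 12 days of SP, a comparison that shares the 3 days controls, values are set beside those of 3 days for some of the genes named above. DACT3 stood at 7.84 at 3 days and 7.01 at 12 days, STAC2 at 6.70 and 5.10, KIF1A at 5.73 and 5.53, NUPR1 at −4.13 and −4.30, and CACNG6 at −3.17 and −3.03. FXYD2 stood at −3.22 and −4.89, and ALDH3A1 at −2.58 and −1.29.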

How the data were processed

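Total RNA of A549 cells was sequenced from 18 libraries, 3 per group. Per the labels and the study's methods, the authors built libraries with the NEBNext Ultra kit, aligned reads to GRCh38 with STAR 2.7.9a, summarised them over Ensembl genes with featureCounts and deposited the raw counts, not normalized, as 2 tables. Strand setting and treatment of multimapping reads are not given in the sources used here. One table holds the 3 days control with both long SP times, the other the 24 h control with both short ones.

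Depth was 15425281 to 20592206 counts in the controls and 16287696 to 17042952 with SP 3 days. Mitochondrial reads made up 6.15% to 6.49% of these libraries, and no library stood apart. Log2 fold changes had a standard error of 0.13 at the median, with a common biological coefficient of variation of 0.0996.

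Tests used edgeR 4.0.16 under R 4.3.3. After filterByExpr with a minimum count of 10 and TMM scaling, all 9 libraries of a table entered 1 robust quasi-likelihood fit by group, with Benjamini-Hochberg adjustment over all tested genes. The thresholds for calls (adjusted p under 0.0001, 2-fold) are those of the study, which used DESeq2. The standard error is the absolute log2 fold change divided by the square root of F. Intervals of ratios of summed reads are exact 95% intervals for counting error only, and a group without reads was set to 3 reads. Gene overlaps, GC content and length come from GENCODE annotation on GRCh38, promoters from RefSeq (GRCh38.p14). The procedure was tested on simulated data.

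The genes named are the 10 largest rises and falls among called genes with a mean of at least 100 normalized counts and no overlap between groups, the 8 largest gains and losses of reads among called genes, up to 4 members per list with the largest change at an adjusted p under 0.05 and at least 50 normalized counts, and further list members with their values. Some of these genes and 1 list are not reported here. The comparison, the 50 lists (written by hand) and the rules were chosen with earlier results of these data known. Alternatives were DESeq2 1.42.0, other size factors, no filter, a fit of the compared groups alone, the replicate block, GC content and length correction, another threshold and leaving out each library. Residuals of libraries with the same number correlated at 0.499, 0.17 and 0.504 between control 24 h and SP 24 h, so these numbers were taken to pair the libraries. Libraries with different numbers correlated at −0.546 to 0.175. The highest of these was SP 24 h replicate 2 with control 24 h replicate 3, so the pairing of number 2 is uncertain. Values at 24 h come from the fit without a block, and the blocked value is given where it changes a call. The correlations were 0.0433, 0.0333 and 0.162 between control and SP 3 days, which were not taken as paired.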

Additional observations from a re-analysis of the deposited data

Results flagged for a closer look

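ALDH3A1 was flagged because its SP 12 days and SP 3 days libraries differed at the thresholds used for calls. Its mean was 34728 normalized counts in the controls, 5792 after 3 days and 14177 after 12 days, and the log2 fold change of SP 12 days over SP 3 days was 1.29 (adjusted p = 1.13e-05 from edgeR's quasi-likelihood test).

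The 7 genes called lower at 3 days that were higher at 24 h were flagged because all 3 SP libraries lay below the controls at 3 days and above them at 24 h. These genes were chosen after their values were seen, and the difference between the times was not tested. SLC51B, a subunit of a bile acid exporter, stood at −1.20 on the log2 scale at 3 days and 2.05 at 24 h, where its normalized counts were 4.76, 11.4 and 3.15 in the controls and 36.4, 24.1 and 17.0 with SP. ADM2, a peptide hormone, stood at −1.52 and 1.70, with 6.66, 21.8 and 15.1 against 34.9, 57.1 and 49.2 at 24 h. STC2, a secreted glycoprotein of the ATF4 list, stood at −1.29 and 0.88, and ULBP1, a ligand of natural killer cells, at −1.46 and 0.84. ERN1 stood at −1.45 and 0.66, the transporters SLC16A6 at −1.25 and 0.85 and SLC25A45 at −1.02 and 0.75. ERN1, whose 3 days counts are given above, held 248, 335 and 327 in the control 24 h libraries, normalized on their own. With SP 24 h it held 417, 536 and 489. Each change is against the controls of its own time, and whether the controls differed between the times was not tested. At 24 h their adjusted p-values from edgeR lay between 0.019 (SLC51B) and 0.0461 (SLC25A45).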

How the results depend on the processing

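Counts of called genes moved with the threshold and the estimate of the spread. With an adjusted p under 0.05 and 2-fold, 2006 genes were higher and 677 lower. With the replicate block, 1604 were higher and 508 lower, and with GC content and length correction together with the block 1506 and 548. Same-numbered libraries did not vary together at 3 days, so the block rests on shared numbers alone. Without single libraries there were 841 to 1576 higher and 245 to 507 lower genes, the highest in both without SP 12 days replicate 3. DESeq2 called 1396 higher and 378 lower, RLE size factors 1180 and 325, no filter 1679 and 457, and the fit of the compared groups alone 1513 and 479. GC content and length correction gave 1012 and 387, so that 72.3% of calls were higher in place of 77.9%. Of the 1169 and 331 calls, 961 and 275 were kept under it, and 1165 and 320 by DESeq2. With bins set by the 3 days controls themselves, 12.3% of the lowest bin were called higher in place of 10.9%. At 24 h, 944 to 1181 called genes moved the same way under the alternatives, and the replicate block gave 1167 in place of 1095. Of 210 named genes, none changed direction under any alternative run, and 34 of 3360 values lost an adjusted p under 0.05. Of 1600 counts of list members under the alternatives, 1423 stayed within 1.5 times the value given.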
